A study of Mus musculus with 33 samples.

Results

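The comparison described here is between 2 wild-type (WT) lines of CH12, a B lymphoma line from mouse whose cells bear IgM and can switch to IgA on stimulation. The members are the RNA-seq libraries whose titles name WT cells with no further word, taken here as the parental line, and those whose titles name a WT clone: 12 of the 33 samples of the series, 6 of each line. No allele or agent is named for either line. Each line was cultured for 48 h in an unactivated or an activated condition, with 3 repeats per line and state that the labels call biological, so p-values measure the spread between these cultures and not between independent clones. The activating stimulus is not named in the labels. The other 12 RNA-seq libraries come from KO1 and KO2, CH12 clones labelled as knockouts of ZMYND8, a chromatin reader; they enter the shared fit and are set beside the WT lines where they show which WT line stands apart. The WT clone is 1 clone, so what it shows is what 1 clone shows, and the labels do not say how it was derived or how long any line was passaged.

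In B cells, Blk is a Src-family kinase of receptor signalling, Prdm1 encodes Blimp-1, the repressor that drives plasma cell differentiation, and IL-10 is a regulatory cytokine that some B cells secrete. A cell line is a population in which subclones can differ in stable ways, in gene copy number, in which genes are silent and in the level of many RNAs, so a single clone can differ from the population it was taken from in RNA that no treatment has touched.

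Sequencing depth, as the total estimated count, lay between 28.99 and 34.07 M per library, around a median of 32.1 M. Numbered genomic regions held 4.176% to 5.479% of the counts in the WT-line libraries, and transcripts nearly all the rest. What is measured for a transcript is its estimated count. What is called a gene value below is the sum over the numbered regions that lie wholly inside the span of that gene alone, so it describes RNA from part of a gene and is not its mRNA; exon, intron and strand are not known for it. Levels are CPM, counts scaled to the depth of the library, and differences are log2 values of the WT clone minus parental WT with their standard error (SE). Because bulk RNA was measured, fewer cells carrying an RNA and less of it per cell cannot be told apart.

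The B cell markers with a region inside the gene, 5 in number, differed in level. The gene values of Ebf1 and Pax5, transcription factors that hold B cell identity, lay at 10.8 to 26.7 and 4.35 to 12.9 CPM over the 12 libraries, and Blk at 0.665 to 5.53 CPM. Cd79a and Cd22, a signalling chain and a coreceptor of the B cell receptor, were low, with medians of 0.115 and 0.0651 CPM, so the label rests on 3 of these 5 markers. Of the T cell markers, 3 of 8 had a region inside the gene, and Lck, also expressed by some B lymphomas, was the highest, at 0.158 to 0.399 CPM. Csf1r and Adgre1 of myeloid cells and Klrb1c of natural killer cells did not exceed 0.301 CPM, and Col1a1 of fibroblasts had 0 counts. Zmynd8 itself, by its gene value, was 1.2 to 2.31 CPM in parental WT and 1.54 to 2.96 CPM in the WT clone, with an averaged difference of 0.21 ± 0.17 (SE, adjusted p = 0.818). In KO1 and KO2 it was 1.76 to 4.18 CPM, and nothing ties the regions that carry it to the deleted part, so it does not check the labels.

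A pair of unactivated libraries, parental WT 3 and WT clone 2, stood apart from their mates, with a standard deviation of log2 differences of 1.009 and 1.165 against 0.586 to 0.832 in the other 10. Every pair of repeats differed beyond sampling noise (chi-square over its degrees of freedom, 11.64 to 66.53). The 2 libraries sit in different lines. The third principal component of the targets of at least 5 CPM, with 7.9% of the variance, was negative in the 6 parental libraries and positive in the 6 WT clone libraries. The distance between libraries was the root mean square of log2 differences over the 15242 targets of at least 5 CPM, so shifts common to all targets enter it. Its median was 0.734 within a group, 0.802 between the lines in one state and 1.029 between the states in one line. Over 240 gene values of at least 5 CPM the medians were 0.837, 0.752 and 1.114, so there the lines lay no farther apart than repeats of a group.

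In unactivated cells, few RNAs differed between the WT lines, and those that did were mostly lower in the clone. Among 49806 transcripts tested, 79 were higher and 231 lower in the WT clone at an adjusted p under 0.05, which is 0.622% of those tested. Among 11264 regions, 3 were higher and 9 lower (0.107%), and among 4510 gene values 7 were lower and none higher (0.155%). After activation the clone had 73 transcripts higher and 215 lower (0.578%), 5 regions higher and 16 lower (0.186%), and 1 gene value higher and 3 lower (0.0887%). Of the called transcripts, 25.5% and 25.3% were higher in the clone in the 2 states. For scale, KO2 against KO1, 2 clones of one genotype, gave 229 called transcripts in unactivated and 262 in activated cells, of which 43.7% and 48.9% were higher in KO2. For regions KO2 against KO1 gave 17 and 19 calls, and for gene values 1 and 6. Averaged over the states it gave 21 gene values, where the WT lines gave 12. So which pair of lines differed in more features depended on the kind of feature and the state. Without the 2 libraries that stand apart, 216 targets (transcripts, regions and Igh elements together) were called in unactivated cells, where the full set gives 322, and 4 gene values where it gives 7. Simulated data of similar size had changes placed only in targets above the median level. Of these, 29% of 2-fold and 54% of 4-fold differences were called in unactivated cells and 26% and 54% in activated cells. So many differences of that size would be missed, and for targets of lower level the rate is not known.

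Most called transcript differences had the same sign in the other state. Of the calls, 138 transcripts were called in both states, 44.5% of the unactivated list and 47.9% of the activated list, and 137 of these had the same sign, 34 higher and 103 lower in the clone. Of the 310 called in unactivated cells, 288 had the same sign in activated cells. Of the 288 called in activated cells, 270 had the same sign in unactivated cells. Over all 49806 transcripts, 55.4% had the same sign in the 2 states. The 2 comparisons share no library. Across all 14953 transcripts of at least 5 CPM the correlation of the 2 differences was 0.252, a description over transcripts, which are not replicates; it was 0.072 over all 49806 transcripts, where low counts enter. For regions, 2 were called in both states, 16.7% of the 12 and 9.52% of the 21, and 1 gene value was, 14.3% of the 7 and 25.0% of the 4. Over the 288 regions of at least 5 CPM, called ones included, the correlation was -0.171, and over 240 such gene values 0.047. Over all 11264 regions it was 0.118, and over all 4510 gene values 0.139. All these correlations were weak. The called transcripts ranged from -13.44 to 8.14 in unactivated cells and from -12.74 to 8.99 in activated cells.

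**Figure D1:**
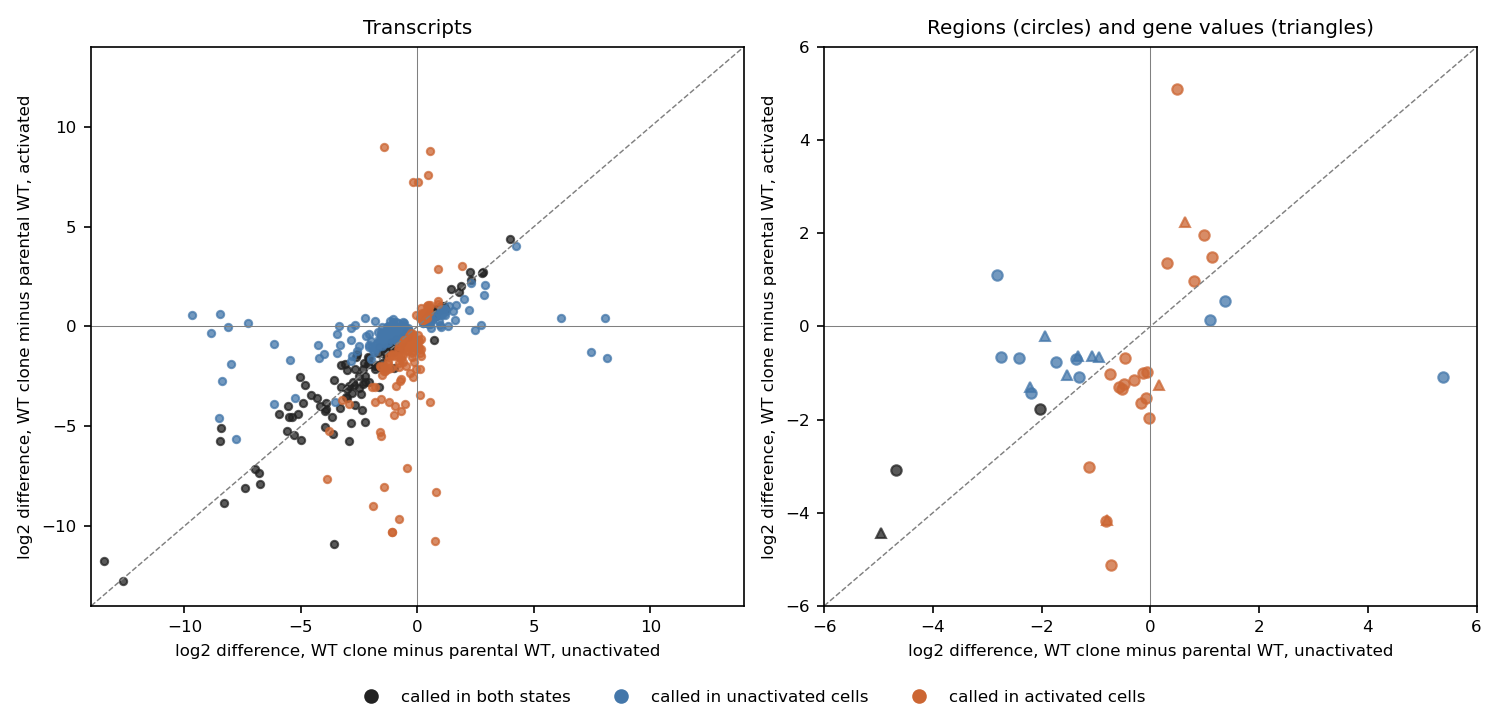
Each point is a transcript (left), or a region or gene value (right), called in at least 1 state, with the log2 difference WT clone minus parental WT in unactivated cells on the x axis and in activated cells on the y axis; black marks those called in both states, the dashed line marks equal differences. Of the 138 transcripts called in both states, 103 lie below 0 and 34 above 0 in both, some of them far from the dashed line.

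The files do not pair transcripts with genes, so transcripts are given by identifier. Those called in both states with the lowest and highest averaged difference and at least 5 CPM in a group show what the largest differences look like. ENSMUST00000060301 measured 28.4, 26.7 and 18.7 CPM in unactivated and 30.2, 24.2 and 26.0 CPM in activated parental WT, and had 0 counts in all 6 WT clone libraries. It was at least 726-fold lower in unactivated and at least 887-fold lower in activated cells of the clone, taking 3 counts over the group as the floor. It was also at 0 in the 6 KO1 libraries, and at 15.8 to 31.7 CPM in KO2. ENSMUST00000168815 had the same pattern, with 30.4 to 59.4 CPM in parental WT and 30.5 to 59.7 CPM in KO2, against at most 0.029 CPM in the WT clone and 0.0619 CPM in KO1. So these 2 transcripts divide the 4 lines into 2 pairs, with a WT line and a KO line in each pair. Transcript counts are estimates, and kallisto can split reads between similar transcripts. A count of 0 for 1 identifier therefore does not show that all RNA of its gene is absent. How reads were divided was not tested. In the other direction, ENSMUST00000039887 measured 0.251 to 0.968 CPM in the 6 parental libraries and 5.29 to 19.9 CPM in the 6 WT clone libraries, an averaged difference of 4.18 ± 0.43 (adjusted p = 1.42e-05). In KO1 and KO2 it did not exceed 0.342 CPM, so the WT clone alone held it high. ENSMUST00000033915 was 1.25 to 2.24 CPM in unactivated parental WT and at least 9.62 CPM in the clone, and 0.314 to 0.52 CPM against 2.03 to 3.78 CPM in activated cells, and the averaged difference was 2.73 ± 0.20 (adjusted p = 2.72e-07). Among the transcripts called on average over both states, 8 had 0 counts in all 6 WT clone libraries and 1 had 0 counts in all 6 parental libraries.

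The average of the 2 states, which uses 6 libraries of each line, called 274 transcripts higher and 576 lower (1.71%), 23 regions higher and 40 lower (0.559%), and 3 gene values higher and 9 lower in the WT clone (0.266%). This averaged comparison was added for transcripts and regions after the data were seen. The KO lines were set beside the WT lines to place each WT line among the 4. For 313 of the 850 transcripts the mean of the WT clone lay outside the range of the other 3 line means while that of parental WT lay inside it, for 254 it was parental WT that lay outside, and for 256 the 2 WT lines were the highest and the lowest of the 4. For the 63 regions these counts were 31, 12 and 19, and for the 12 gene values 5, 1 and 6. These are counts of means, with no test. The features were picked for a difference between the WT lines, so a WT line at an end follows largely from that choice. For 27 of the 850 transcripts neither WT line lay outside. The KO lines also differ from the WT lines in their labelled genotype.

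The gene values called in any comparison were 14 in number, and all are described, since no gene met the rule planned for naming (called in both states with at least 3 CPM). They were therefore chosen after their values were seen. With the 12 WT-line libraries alone, the averaged calls of Gm39583, Il10, Lipc and St6gal1 were kept and those of the other gene values lost. In that fit Gm39583 and Lipc stayed called in unactivated cells and Il10 in activated cells, and no other of these calls was kept. The plot of gene values by library shows them for all 4 lines.

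**Figure D2:**
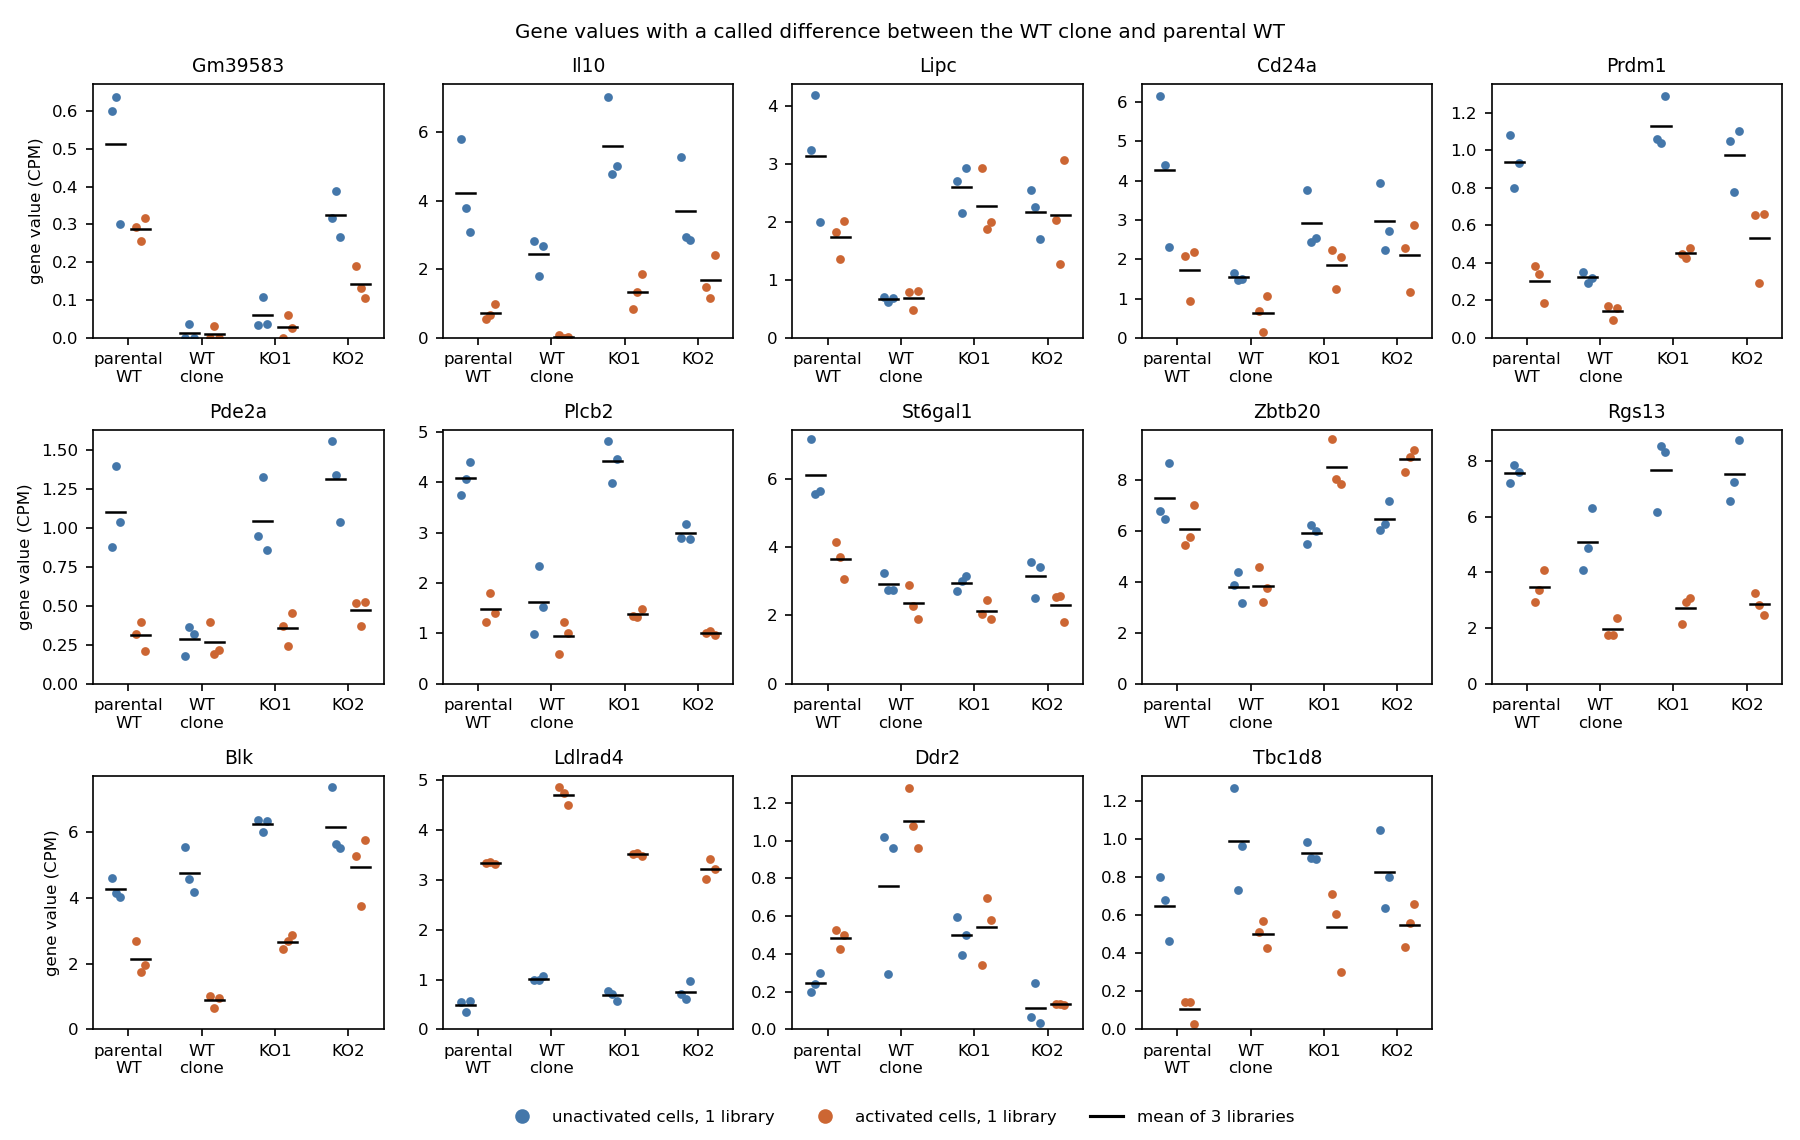
Each panel is 1 gene; points are the gene value in CPM of 1 library (blue unactivated, orange activated), black bars the mean of 3 libraries, over parental WT, the WT clone, KO1 and KO2, and each axis starts at 0. In Il10 the activated WT clone libraries lie at or below 0.0852 CPM while those of the other 3 lines lie at 0.556 CPM or more, and in St6gal1 parental WT lies above the WT clone in both states.

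Il10, the gene of interleukin 10 (identifier 16153, chromosome 1, 131019845 to 131024970, GRCm38), was the called cytokine gene. Its value rests on 1 region of 1065 bases. Parental WT measured 5.79, 3.79 and 3.09 CPM in unactivated and 0.556, 0.656 and 1.00 CPM in activated cells. The WT clone measured 2.82, 1.79 and 2.69 CPM in unactivated and 0.0852, 0 and 0.0267 CPM in activated cells. In activated cells the groups were far apart, with 80 counts in parental WT and 4 in the clone, a ratio of 19.5 (95% exact counting interval 7.32 to 73.2) and a log2 difference of -4.15 ± 0.66 (adjusted p = 0.00616). In unactivated cells the groups did not overlap either, but the difference of -0.79 ± 0.32 was not called (adjusted p = 0.625). The difference between the states, -3.36 ± 0.78, was not called (adjusted p = 0.499). Without activated WT clone library 3 the call was lost, and the values without each of the 12 libraries in turn ranged from -5.34 to -3.66. KO1 and KO2 lay at 0.844 to 7.04 and 1.17 to 5.29 CPM, so the low activated level was seen in the WT clone alone.

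Prdm1, whose product Blimp-1 commits B cells to the plasma cell fate, was low in both lines and lower in the clone. Unactivated parental WT measured 1.08, 0.798 and 0.931 CPM and the unactivated WT clone 0.352, 0.293 and 0.321 CPM, a difference of -1.53 ± 0.31 (adjusted p = 0.0264). In activated cells the values were 0.381, 0.342 and 0.185 CPM against 0.17, 0.0949 and 0.16 CPM, which do not overlap, with a difference of -1.04 ± 0.39 that was not called (adjusted p = 0.725). The unactivated call was lost without parental library 1 or 3, without any of the 3 WT clone libraries (all unactivated), without the 2 libraries that differ from their mates and with DESeq2. The gene value rests on 154 counts over the 12 WT-line libraries. The only region of Prdm1 tested alone, with 77.3% of these counts, differed by -1.22 in unactivated cells and -0.82 on average. That region was not called (adjusted p = 0.221 and 0.192 by edgeR). Of the 10 plasma cell program genes tested, Prdm1 was the only one called; Irf4, a transcription factor that acts with it, measured 2.16, 1.48 and 1.23 CPM against 1.51, 0.439 and 0.843 CPM in unactivated cells and was not called (averaged adjusted p = 0.378). The median averaged difference of the list was -0.15, where that of all 4510 gene values was -0.001.

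Among B cell identity and receptor genes, 22 were tested, none was called in unactivated cells, and Blk was called in activated cells. Blk measured 4.59, 4.15 and 4.02 CPM in unactivated parental WT and 5.53, 4.57 and 4.17 CPM in the unactivated clone, groups that overlap. In activated cells it measured 2.69, 1.74 and 1.95 CPM in parental WT and 1.02, 0.665 and 0.961 CPM in the clone, a difference of -1.26 ± 0.22 (adjusted p = 0.0138). The change of the difference with state, -1.42 ± 0.30, was not called (adjusted p = 0.267). Activated KO1 and KO2 held Blk at 2.43 to 2.88 and 3.74 to 5.76 CPM, above the activated clone. The activated call was lost without parental library 1 or WT clone library 2 or 3 of that state. Cd24a, a heavily glycosylated surface protein of developing and activated B cells, was lower by 1.44 ± 0.30 on average (adjusted p = 0.0267), with unactivated values of 6.15, 4.39 and 2.3 CPM against 1.66, 1.46 and 1.49 CPM. In activated cells its groups overlapped, and its averaged call was lost without any 1 of 9 libraries; it was kept without parental unactivated 3, parental activated 2 or WT clone activated 3. The list's median averaged difference was -0.02.

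Lipc, the gene of hepatic lipase, was the gene value whose unactivated call did not depend on any 1 library. Unactivated parental WT measured 3.24, 4.19 and 2.0 CPM and the clone 0.704, 0.622 and 0.682 CPM, a difference of -2.21 ± 0.32 (adjusted p = 0.00144). In activated cells the values were 1.82, 1.37 and 2.01 CPM against 0.795, 0.475 and 0.801 CPM, with a difference of -1.31 ± 0.31 that was not called (adjusted p = 0.176). The unactivated difference lay between -2.45 and -1.93 without each of the 12 libraries in turn. One of its 7 regions, at 70816484 to 70817721 of chromosome 9, holds 58.9% of its counts. It measured 2.07, 2.77 and 1.51 CPM against 0.0657, 0.111 and 0.0636 CPM in unactivated cells, and 1.1, 1.0 and 1.54 CPM against 0.126, 0.0304 and 0.261 CPM in activated cells. The region differed by -4.67 ± 0.57 (adjusted p = 0.000222) and -3.08 ± 0.52 (adjusted p = 0.00606), and KO1 and KO2 lay at 1.44 to 2.6 and 0.941 to 2.66 CPM, near parental WT. The other 2 tested regions of the gene differed by -0.63 and -0.19 on average and were not called (adjusted p = 0.769 and 0.983).

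Pde2a, a phosphodiesterase of cyclic nucleotides, and Plcb2, a phospholipase C of G protein signalling, were also lower in unactivated cells of the clone. Pde2a measured 0.879, 1.4 and 1.04 CPM against 0.176, 0.366 and 0.321 CPM, a difference of -1.93 ± 0.34 (adjusted p = 0.00634), and was 0.322, 0.399 and 0.211 CPM against 0.398, 0.19 and 0.214 CPM in activated cells. Plcb2 measured 3.75, 4.07 and 4.41 CPM against 0.986, 2.34 and 1.53 CPM, a difference of -1.34 ± 0.23 (adjusted p = 0.00634). In activated cells both genes overlapped between the lines. Both unactivated calls were lost without WT clone unactivated library 1 or 3. The difference of the 2 states was not called for Pde2a (1.73 ± 0.52, adjusted p = 0.999) nor for Plcb2 (0.69 ± 0.34, adjusted p = 0.999).

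St6gal1 and Zbtb20 both lie on chromosome 16. St6gal1 encodes the sialyltransferase that adds alpha-2,6-linked sialic acid, the ligand of CD22 on B cells, and Zbtb20 encodes a BTB zinc finger repressor expressed in plasma cells and other B cells. St6gal1 measured 7.15, 5.55 and 5.64 CPM in unactivated parental WT and 3.24, 2.74 and 2.73 CPM in the unactivated clone, a difference of -1.07 ± 0.20 (adjusted p = 0.00959). In activated cells it was 4.16, 3.71 and 3.06 CPM against 2.9, 2.28 and 1.9 CPM, with a difference of -0.63 ± 0.20 that was not called (adjusted p = 0.527). KO1 and KO2 lay at 1.9 to 3.15 and 1.81 to 3.57 CPM, at the level of the clone, so for this gene parental WT stood apart. Zbtb20 measured 6.79, 6.46 and 8.68 CPM against 3.87, 4.39 and 3.17 CPM in unactivated cells (-0.94 ± 0.18, adjusted p = 0.0158) and 5.45, 5.76 and 7.02 CPM against 4.6, 3.2 and 3.76 CPM in activated cells. KO1 and KO2 held it at 5.49 to 9.63 and 6.02 to 9.18 CPM, above the clone in each state, so for this gene the clone stood apart. Unactivated calls were lost for St6gal1 without parental library 1 or any clone library, for Zbtb20 without parental library 3 or clone library 1 or 3 (all unactivated), and for both without the 2 libraries that stand apart; their averaged calls were kept without any 1 library. Of 19 genes of glycan synthesis tested, St6gal1 was the only one called; the median averaged difference of the list was -0.01.

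Rgs13, a regulator of G protein signalling in germinal centre B cells, was lower on average by 0.70 ± 0.14 in the clone (adjusted p = 0.0234) and called in neither state. It measured 7.19, 7.86 and 7.61 CPM against 4.09, 4.87 and 6.3 CPM in unactivated and 2.93, 3.37 and 4.07 CPM against 1.76, 1.74 and 2.35 CPM in activated cells, with no overlap in either state. Its call was lost without any 1 of 6 libraries (parental unactivated 2 and activated 3, and WT clone 1 and 2 of each state) and without the 2 libraries that stand apart, as was the averaged call of Prdm1. It was the only called gene of the 21 tested for homing and adhesion. Gm39583, a long noncoding RNA on chromosome 11, was the only gene value called in both states. Its unactivated call was lost without WT clone unactivated library 1 or 3, its activated call without parental activated library 1 or WT clone activated library 1 or 3, and its activated and averaged calls with DESeq2. It rests on 42 and 31 counts in parental WT and 1 count in each state of the clone, ratios of 39.1 (counting interval 6.64 to 1580) and 30.2 (5.03 to 1230). Parental WT held 0.257 to 0.638 CPM, the clone at most 0.0366 CPM, KO1 at most 0.108 CPM and KO2 0.105 to 0.389 CPM.

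A few gene values were higher in the clone. Ldlrad4, a negative regulator of TGF-beta signalling, measured 0.559, 0.359 and 0.575 CPM in unactivated parental WT and 0.986, 0.988 and 1.08 CPM in the clone. In activated cells it was 3.34, 3.37 and 3.33 CPM against 4.86, 4.75 and 4.51 CPM. The averaged difference of 0.75 ± 0.13 was called (adjusted p = 0.00453), with no overlap in either state and the call kept whichever library was left out. With the 12 WT-line libraries alone that call was lost. No tested region inside Ldlrad4 was called on its own. Along the gene they differed by 0.50, -0.03, 1.46, -0.33 and 0.36 on average. The region at -0.33 held the most counts, 25.4% of those of the gene. The gene value in KO1 and KO2 did not exceed 3.54 CPM, so in activated cells the clone alone was high. Ddr2, a collagen receptor kinase, was higher by 1.38 ± 0.27 on average (adjusted p = 0.0129), at 0.527, 0.428 and 0.502 CPM against 1.28, 1.08 and 0.961 CPM in activated cells, and its call was lost without parental unactivated library 1 or WT clone unactivated library 1 or 3. Tbc1d8, a Rab GTPase-activating protein, was higher by 2.24 ± 0.44 in activated cells (adjusted p = 0.0339), at 0.146, 0.143 and 0.0264 CPM against 0.511, 0.57 and 0.427 CPM. That call was lost without any 1 of the 6 activated libraries, and the averaged difference of 1.44 ± 0.27 (adjusted p = 0.0102) was kept. Its values in activated KO1 and KO2 averaged 0.541 and 0.55 CPM, close to the clone, so in Tbc1d8 parental WT stood apart.

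The regions were sorted by where they lie. On average over the states, 21 of 6939 regions inside 1 gene were called (0.303%), 25 of 2697 outside genes (0.927%) and 17 of 1628 at a gene end or over several genes (1.04%). Of the 63 regions called on average, 26 were called without any 1 library, 44 without the 2 libraries that stand apart, 38 when regions were fitted without transcripts, 29 without the low-count filter and 11 with the WT-line libraries alone. The regions described next were chosen after their values were seen. Outside genes, 1 region was called in both states, 4290 bases at chr6:98842722-98847011, 78.3 kb from Foxp1, which encodes a forkhead factor of B cell development. It measured 1.12, 0.968 and 1.23 CPM against 0.329, 0.221 and 0.254 CPM in unactivated and 2.37, 2.13 and 2.82 CPM against 0.63, 0.608 and 0.9 CPM in activated cells. The differences were -2.03 ± 0.39 (adjusted p = 0.015) and -1.77 ± 0.37 (adjusted p = 0.0325). KO1 held 0.999 to 5.53 CPM and KO2 0.436 to 2.29 CPM. A region 61.8 kb from Il6, the gene of interleukin 6, was 0.394, 0.467 and 0.473 CPM against 0.164, 0.184 and 0.127 CPM in unactivated and 0.722, 0.596 and 1.22 CPM against 0.283, 0.335 and 0.378 CPM in activated cells, with an averaged difference of -1.40 ± 0.22 (adjusted p = 0.0013). A region 11.6 kb from Klf10, a TGF-beta-induced repressor, differed by -1.81 ± 0.29 on average (adjusted p = 0.00158), a call lost with the WT-line libraries alone. In it KO1 and KO2 lay at 0.279 to 0.604 CPM, near the 0.263 to 0.504 CPM of parental WT. Of those higher in the clone, a region 55.2 kb from Akap11 measured 0.367 to 0.578 CPM in parental WT and 1.07 to 2.06 CPM in the clone, with an averaged difference of 1.69 ± 0.30 (adjusted p = 0.00472). A region 5.07 kb from Plk2, a polo-like kinase, was among the most abundant called, at 60.5, 74.0 and 84.1 CPM against 107, 172 and 103 CPM in unactivated cells and 38.0, 39.0 and 49.5 CPM against 57.7, 64.3 and 62.8 CPM in activated cells (0.68 ± 0.14, adjusted p = 0.0154). That call was lost without parental unactivated library 1, parental activated library 1 or 2, and with the WT-line libraries alone.

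**Figure D3:**
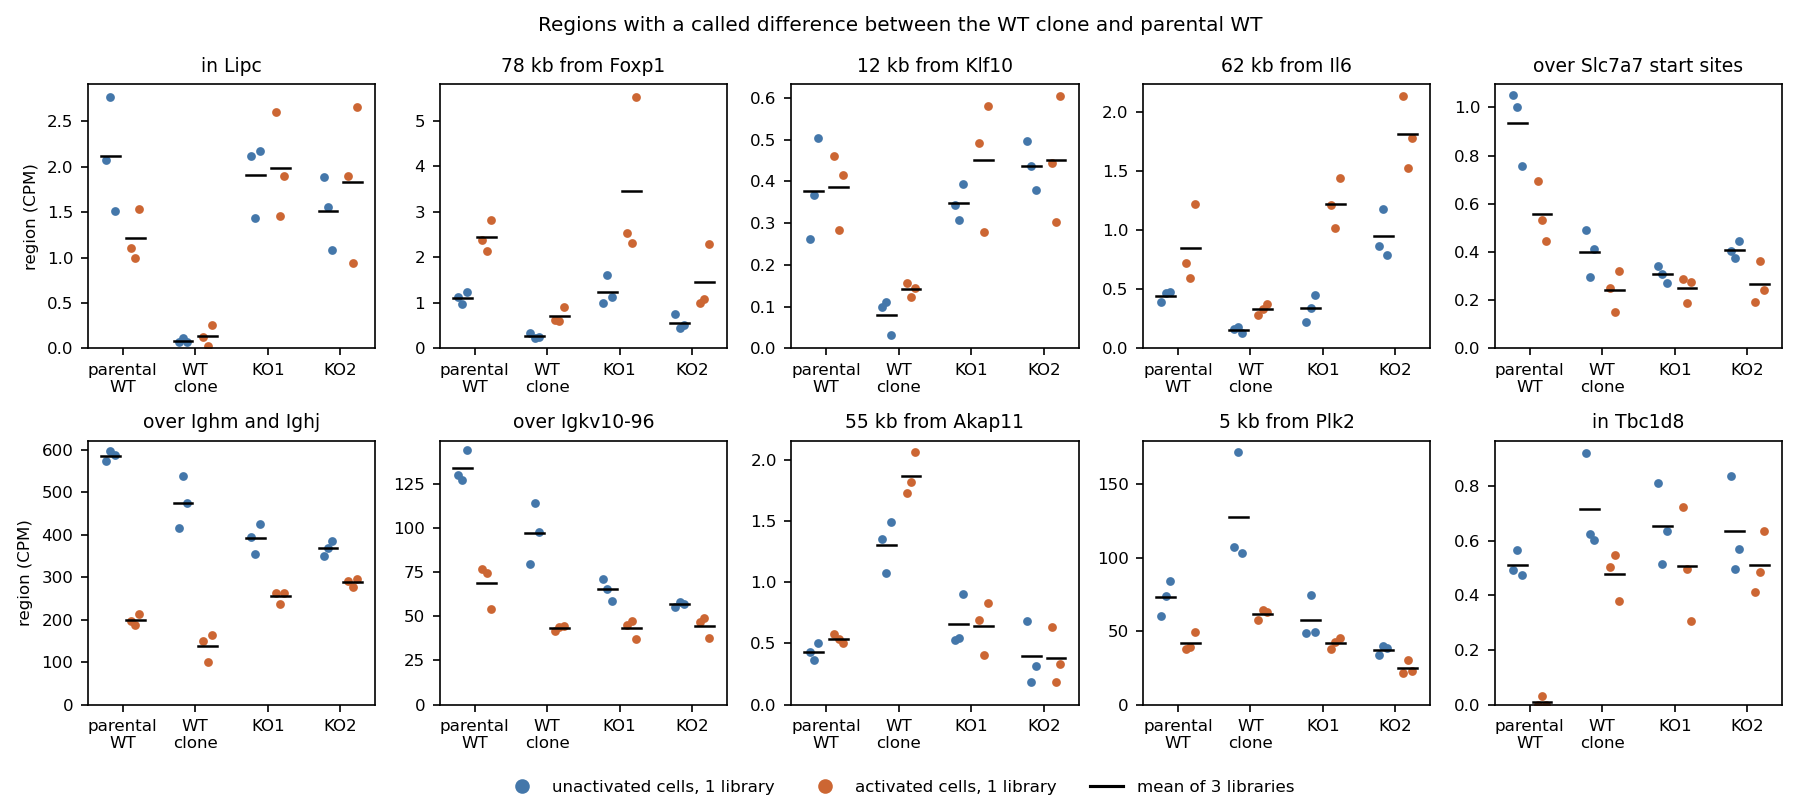
Each panel is 1 region, named by its gene or by its distance to the nearest protein-coding gene; points are CPM of 1 library (blue unactivated, orange activated), black bars means of 3, over the 4 lines, each axis starting at 0. In the region inside Lipc the 6 WT clone libraries lie at or below 0.261 CPM and those of the other lines at 0.941 CPM or more; in the region over the Slc7a7 start sites parental WT alone lies high.

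Antibody loci were among the called regions. The region over Ighm and the heavy chain J segments (10710 bases at chr12:113418607-113429316) measured 574, 597 and 589 CPM against 415, 538 and 475 CPM in unactivated and 198, 188 and 213 CPM against 149, 101 and 164 CPM in activated cells, an averaged difference of -0.42 ± 0.09 (adjusted p = 0.0188). The region over the kappa variable gene Igkv10-96 was 130, 127 and 144 CPM against 79.3, 114 and 97.4 CPM in unactivated and 76.9, 74.7 and 54.1 CPM against 41.4, 43.7 and 44.4 CPM in activated cells, where it was called (-0.67 ± 0.14, adjusted p = 0.0395). The region over the lambda genes Iglc1, Iglj1 and Iglc3 differed by -0.54 ± 0.13 on average (adjusted p = 0.0434), a call lost without any 1 of 10 libraries (kept without parental unactivated 3 or parental activated 2), with relative log expression scaling and when regions were fitted alone. The Ighm call was lost without parental activated library 3 or WT clone unactivated library 1, and with the 12 WT-line libraries alone. The averaged calls of Ighm and Igkv10-96 were lost when regions were fitted alone. Antibody gene segments are near copies of one another, so kallisto can split their reads, and these values are uncertain to that degree. Of the named Igh elements, 4 passed the filter and edgeR called 0 in any of the 4 comparisons, with 0 at an unadjusted p under 0.05 and 0 by DESeq2. The mu enhancer transcript was 46.4, 33.6 and 34.5 CPM in unactivated parental WT and 35.2, 25.8 and 35.3 CPM in the clone, and 60.1, 54.6 and 51.0 CPM against 59.2, 67.3 and 60.2 CPM in activated cells, groups that overlap. The switch alpha intron transcript, which precedes switching to IgA, was 2.77, 1.88 and 2.76 CPM against 2.77, 1.52 and 2.41 CPM in activated cells, a difference of -0.15 ± 0.28.

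Regions of 2 immune genes were called in activated cells and not in unactivated cells, and the change of the difference with state was not called for them (adjusted p = 1.0 for both). The region at the end of Ccl22, a chemokine that attracts T cells, was 10.2, 12.2 and 11.1 CPM in activated parental WT and 3.21, 3.41 and 4.88 CPM in the activated clone (-1.54 ± 0.34, adjusted p = 0.0498). The larger region inside Cd274, the gene of PD-L1, was 8.93, 11.4 and 8.63 CPM against 5.2, 5.23 and 4.1 CPM (-1.0 ± 0.21, adjusted p = 0.0388). In unactivated cells the 2 lines overlapped in both. A region 1.15 kb from Rragd, a Rag GTPase that signals amino acid supply, was 1.01, 1.04 and 0.801 CPM against 0.189, 0.304 and 0.407 CPM in activated cells (-1.65 ± 0.25, adjusted p = 0.0028) and 0.855, 0.968 and 1.04 CPM against 0.986, 0.774 and 0.763 CPM in unactivated cells; here too the change with state was not called (adjusted p = 0.394).

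Of the called regions, 9 cover 15 annotated start windows of 10 genes, and among these is Slc7a7, the light subunit of an exporter of cationic amino acids. Its region, 1687 bases at chr14:54416675-54418361, lies over 3 of its 5 start windows. It measured 1.05, 1.0 and 0.756 CPM against 0.493, 0.295 and 0.413 CPM in unactivated and 0.693, 0.534 and 0.445 CPM against 0.252, 0.152 and 0.32 CPM in activated cells, an averaged difference of -1.20 ± 0.22 (adjusted p = 0.00598). KO1 and KO2 lay at 0.186 to 0.343 and 0.19 to 0.444 CPM, with the clone, so parental WT stood apart. The averaged call was lost with the 12 WT-line libraries alone. The RefSeq start window that lies farthest upstream (chr14:54417895-54418194, minus strand, GRCm38.p6, mostly bases upstream of the start) is shown because the called region covers it; capitals mark a GC box, and the strand is that of the gene.
Slc7a7 start window: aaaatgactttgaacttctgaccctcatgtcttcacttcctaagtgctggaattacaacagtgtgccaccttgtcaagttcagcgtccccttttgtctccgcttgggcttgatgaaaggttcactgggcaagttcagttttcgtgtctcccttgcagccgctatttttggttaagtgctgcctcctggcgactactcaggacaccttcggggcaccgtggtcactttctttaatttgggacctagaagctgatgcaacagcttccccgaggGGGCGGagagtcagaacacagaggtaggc
The window was searched on both strands for the GC box GGGCGG, the TATA box TATAAA and the octamer ATTTGCAT, which is found in antibody promoters; only the GC box matched. Of all 32851 RefSeq start windows 35.7% hold the GC box, 13.6% the TATA box and 1.74% the octamer. A match of letters is not a bound site.

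By edgeR, 8 differences between the lines were called as changing with activation, and by DESeq2 227. Over all targets the change of the line difference with activation was called for 3 transcripts rising and 3 falling (0.012%) and for 2 regions (0.0178%). No gene value was called (0.0%) by edgeR, where 200 had an unadjusted p under 0.05 and DESeq2 called 1. On simulated data of similar size, 55% of 2-fold and 96% of 4-fold differences in unactivated cells were called for gene values above the median level. No change of a difference was simulated, so the size that this test could miss is unknown. The region inside Tbc1d8 was 0.493, 0.567 and 0.473 CPM in unactivated parental WT and 0.92, 0.626 and 0.604 CPM in the clone. In activated cells it was 0, 0.0314 and 0 CPM in parental WT and 0.504, 0.547 and 0.378 CPM in the clone, and the change was 4.62 (95% interval 3.08 to 6.15, adjusted p = 0.0433). The errors of this change were large: for Il10 the change of the difference was -3.36 ± 0.78 and for Lipc 0.90 ± 0.46.

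By chromosome, the level of all regions of a chromosome was compared as the median over its regions. The planned comparison called 0 of 20 chromosomes (0.0%) and 0 of 228 bins of 10 Mb (0.0%) by limma, with 0 and 4 at an unadjusted p under 0.05. In that comparison the library-wide level of regions moved all chromosomes of a library together, with a median SE of 0.085. When the median over all regions was set equal in each library, a choice made after the data were seen, the median SE was 0.015 and 3 chromosomes were called on average (15.0% of 20). Chromosome 16 was lower in the WT clone by 8.6% (-0.129 on the log2 scale, adjusted p = 5.81e-06), chromosome 15 by 4.6% (-0.068, adjusted p = 0.00375), and chromosome 10 was higher by 5.8% (0.082, adjusted p = 3.69e-05). Each was called without any 1 of the 12 libraries, with highest adjusted p of 0.000248, 0.026 and 0.00116. The 6 parental libraries lay at -0.065 to -0.010 on chromosome 10, and the 6 of the clone at 0.028 to 0.069. KO1 and KO2 lay at 0.007 to 0.054 and 0.043 to 0.069, so on chromosome 10 all 18 libraries of the 3 clonal lines lay above all 6 of parental WT. On chromosome 16 parental WT lay at -0.013 to 0.124, the clone at -0.110 to -0.020, KO1 at -0.113 to -0.011 and KO2 at -0.131 to -0.028. On chromosome 15 KO1 averaged -0.042, like the clone at -0.043, and KO2 averaged 0.032, like parental WT at 0.025. No chromosome changed its difference with state at an adjusted p under 0.05 by limma (1 at an unadjusted p under 0.05). DNA was not measured here, so copy number and RNA level cannot be told apart.

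**Figure D4:**
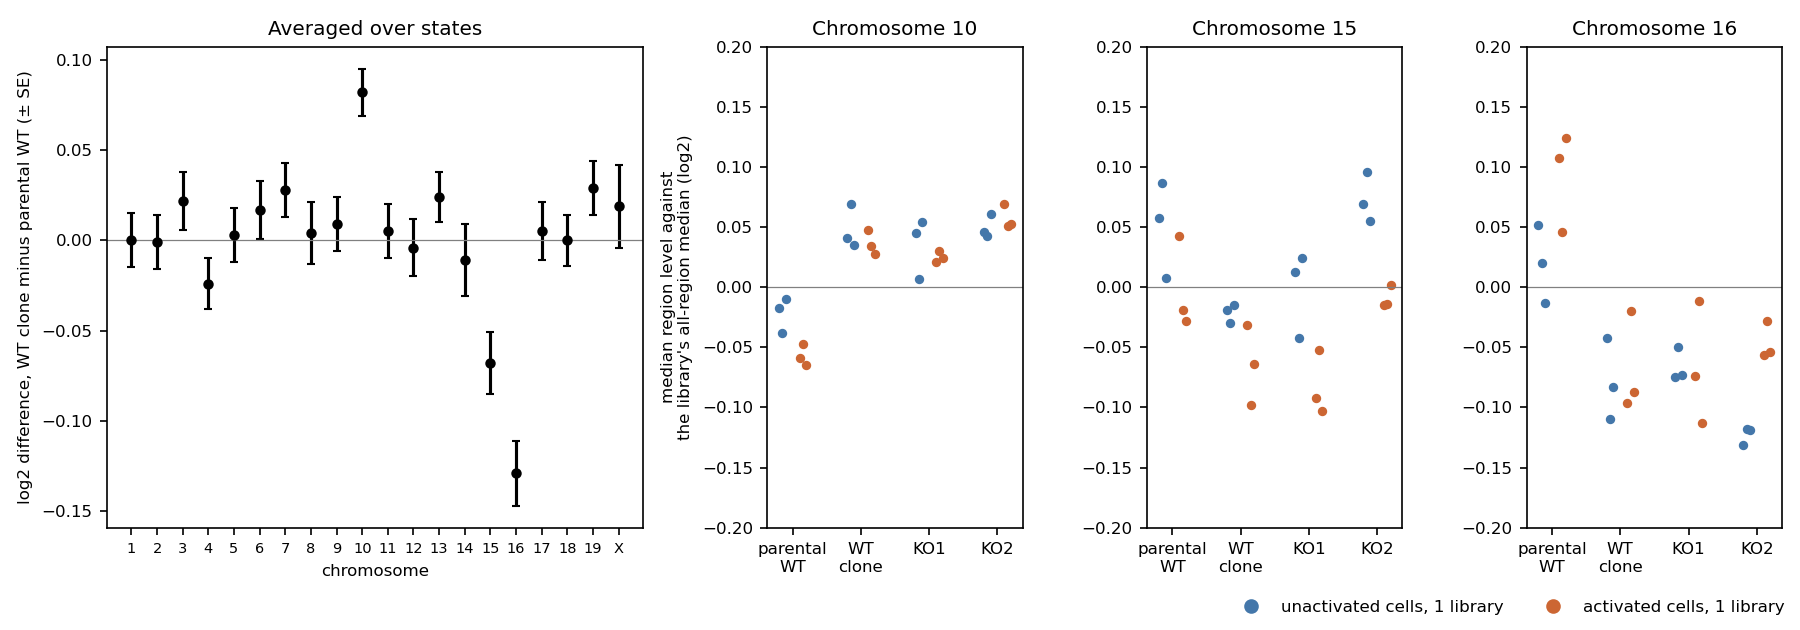
Left: log2 difference of the median region level, WT clone minus parental WT averaged over both states, for the 20 chromosomes, with SE bars, each library set against its median over all regions. Right: the same level in each library of the 4 lines for chromosomes 10, 15 and 16 (blue unactivated, orange activated); chromosome 16 is at -0.129 on the left, and on chromosome 10 the 6 parental libraries lie below the other 18.

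In bins of 10 Mb, treated alike, 3 of 228 were called on average (1.32%), all lower in the clone. They were 20 to 30 Mb of chromosome 16, with 25 regions (-0.275 ± 0.054, adjusted p = 0.0168), 40 to 50 Mb of chromosome 16, with 48 regions (-0.218 ± 0.052, adjusted p = 0.0422), and 110 to 120 Mb of chromosome 2, with 20 regions (-0.257 ± 0.055, adjusted p = 0.0189). St6gal1 lies in the first, Zbtb20 in the second and Plcb2 in the third. Of the 40 regions lower on average, 9 lie on chromosome 16, where 2.35% of 426 regions were called, against 0.559% of all regions. The values of the bins include the regions of these genes. Leaving out 1 library left between 0 and 3 bins called. No bin was called without parental unactivated 1 or 2, WT clone unactivated 1 or 3, or any activated WT clone library. All 3 were reached only without parental activated 2.

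Across 25 lists of genes, 5 held a called member, all named above, where 0.266% of all 4510 gene values were called on average; nothing particular to a list is read from 0 or 1 call. The list of cytokines and their receptors had 17 members tested, with Il10 called, a median averaged difference of -0.18 and a median of -0.55 in activated cells, where the median of all gene values was 0.0. In 15 further lists with at least 5 members tested, which hold 6 to 81 genes each, no member was called in any comparison, and the medians of the averaged difference ran from -0.10 to 0.11. Among these were 18 CD40 and NF-kB targets (median 0.01), 15 cell cycle genes (0.10), 31 chromatin genes (0.03), 12 TGF-beta genes (-0.10), 10 imprinted genes (0.01), 7 interferon response genes (0.11) and 6 genes of class switch recombination (-0.01). These counts cover the measured regions of each gene, not its transcripts.

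Genes silent in one line were looked for among gene values with 0 counts in all 6 libraries of a line. In the WT clone 370 gene values were at 0 and had counts in parental WT, but none had 30 counts there; the highest were Aen (12 counts, 11 of them in 1 library), Gm10687, ccdc198 and Tbx20 (9 each). In parental WT 326 were at 0, and Adgrg5, an adhesion receptor, had 30 counts in the clone, at least 10.5-fold higher taking 3 counts over the line as the floor. All 30 lay in 2 unactivated libraries, 18 and 12, so the clone itself was at 0 in its other 4 libraries. Gabpa (16 counts), Ccr2 (12) and Gvin1 (7) followed. None of these passed the filter on low counts, so none was tested.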

How the data were processed

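RNA was depleted of ribosomal RNA and sequenced as stranded total-RNA libraries, per the labels' protocols. The authors deposited expected counts (kallisto 0.43.0 estimated counts, GRCm38.p5, per the submitters' processing notes) for 171152 targets: 121400 transcripts, 49745 numbered regions and 7 Igh elements. How the regions were chosen is not given in the sources used here. Counts were rounded, and regions wholly inside exactly 1 RefSeq gene (GRCm38.p6; 12 whole-locus entries left out) were summed into 10750 gene values. All 24 RNA-seq libraries were fitted with 8 group means in edgeR 4.0.16 (TMM, filterByExpr, quasi-likelihood test, 16 residual degrees of freedom) under R 4.3.3; called means a Benjamini-Hochberg adjusted p under 0.05 over the whole table. Chromosomes and bins of 10 Mb with at least 15 regions used limma 3.58.1; DESeq2 1.42.0 was an alternative. The naming rule took gene values called in both states with at least 3 CPM, and members of the lists. The members and lists were chosen with earlier results of these data known. Tested on simulated data, the averaged fit called 93% of 2-fold and 99% of 4-fold changes of gene values, and 47% and 71% of those of targets, of whose calls 7.09% were false. Counting intervals are exact at 95% and cover counting error only. ChIP-seq and GRO-seq samples (9) were not analysed here.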

Additional observations from a re-analysis of the deposited data

Results flagged for a closer look

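The line difference changed with activation, by edgeR's quasi-likelihood test of that change, for 8 of 61074 targets. The region inside Frmd4b (chr6:97290567-97291213) had a change of -6.47 (adjusted p = 0.0104). It was at 0 in unactivated parental WT and at 0.127 to 0.221 CPM in the unactivated clone, so it rests on few counts. The region inside Tbc1d8 had a change of 4.62 (adjusted p = 0.0433). Among 6 transcripts, the change was -3.54 in one with 0.848 to 1.91 CPM in activated parental WT against 0.0871 to 0.157 CPM in the activated clone. It was -2.24 in a second, at 25.4 to 32.7 against 4.14 to 8.79 CPM in activated cells, and -1.38 in the third, which was lower in the clone in activated cells, at 46.1 to 63.3 against 32.2 to 36.7 CPM, and higher in unactivated cells, at 81.4 to 108 against 136 to 165 CPM (0.70, adjusted p = 0.00349 by edgeR). It was 1.18 in the fourth, at 10.2 to 12.4 against 5.01 to 6.37 CPM in unactivated cells. The last 2, with changes of 7.44 and 10.2, were at 0 in the unactivated clone, and these values depend on the prior count.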

How the results depend on the processing

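No result changed direction under any alternative. DESeq2 called 969, 947, 227 and 1841 targets in unactivated cells, in activated cells, for the change with state and on average, where edgeR called 322, 309, 8 and 913, and 1 and 21 gene values for the change and on average (edgeR 0 and 12). Without the low-count filter 207, 172 and 534 targets were called in unactivated cells, activated cells and on average, and 13, 19, 8 and 33 gene values in the 4 comparisons. With the 12 WT-line libraries alone, 173, 139, 1 and 447 targets and, in unactivated cells, activated cells and on average, 2, 1 and 4 gene values were called. Leaving out parental unactivated 3 and WT clone unactivated 2 together, chosen after seeing the data, left 4 gene values in unactivated cells. Library medians set equal gave 3 chromosomes and 3 bins, where the planned fit gave 0. Leaving out each library in turn gave 209 to 317, 153 to 332, 5 to 18 and 665 to 970 targets, 1 to 8, 0 to 7, 0 and 10 to 18 gene values, and, with medians set equal, 3 chromosomes and 0 to 3 bins. The lowest counts came without parental unactivated 1 (209 targets), WT clone activated 2 (153), WT clone unactivated 1 or 3 (1 gene value) and WT clone activated 3 (0 gene values); also, 213 targets came without WT clone unactivated 3, 196 without parental activated 1, 1 gene value without parental activated 1, 2 without WT clone activated 2 and 7 without parental activated 3, and for the change with state 5 targets without parental unactivated 2, 17 without WT clone unactivated 1 and 18 without WT clone activated 3. Replicate numbers were not used as pairs in the main fit. Libraries of the same number and state had 6 correlations of -0.465 to 0.48, 3 over 0.1. With the same number and the other state, 7 of 12 were over 0.1 (-0.299 to 0.379). With different numbers, 7 of 36 were (-0.536 to 0.678). Whether the numbers mark libraries made together cannot be told from these. With a replicate block 390, 357, 7 and 1010 targets and 7, 6, 0 and 14 gene values were called. The cause of these shifts was not tested. Of the 12 gene values called on average, 8 were called without any 1 library, and of the 63 regions 26.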
